A study of Homo sapiens with 4 samples.

Results

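The 10 keratin genes KRT5, KRT7, KRT8, KRT10, KRT14, KRT15, KRT17, KRT18, KRT19 and KRT80 were followed in BEAS-2B, an established line of human bronchial epithelial cells. They were chosen by symbol as simple, basal and stress keratins, and each matched 1 of the 39634 genes with values in the deposited count table. The study's question was what the loss of FER, a tyrosine kinase of the cytoplasm, does to gene expression in this line. Polyadenylated RNA was sequenced from 2 libraries of cells with a control short hairpin RNA (shControl) and from 2 libraries of cells with a hairpin against Fer (shFer). All 4 were grown in N2B27 medium, and no time, hairpin sequence or clone is given in the labels. The labels number the replicates and do not say whether each had its own culture. The p-values therefore speak only to the spread among these 4 samples, and that spread may be technical.

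Keratins are the intermediate filament proteins of epithelial cells. Each filament is built from an acidic type I chain joined to a basic type II chain, so the members of both types are needed together. KRT8 and KRT18 are the usual pair of simple epithelia, where KRT7 and KRT19 join them, and KRT5 pairs with KRT14 in basal cells of stratified and airway epithelium. KRT15 is also made by basal cells, KRT10 by suprabasal cells of the epidermis, and KRT17 is induced in injured or activated epithelia. KRT80 is a type II keratin found near desmosomes. Of the 10 genes, 6 are type I (KRT10, KRT14, KRT15, KRT17, KRT18, KRT19) and 4 are type II (KRT5, KRT7, KRT8, KRT80).

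The keratins are close relatives, so the coding sequence at the end of the central rod, which specifies the conserved helix termination motif, is shown for the 6 type I genes. It bears on how far short reads can be told apart between genes. The stretches are 30 bases long, read 5′ to 3′ on the coding strand from GENCODE release 29 transcripts (GRCh38), and all lie in coding exons. Capitals mark bases that differ from KRT17.
KRT17: gccacctaccgccgcctgctggagggagag
KRT14: gccacctaccgccgcctgctggagggCgag
KRT19: gccacctaccgcAgcctgctCgagggaCag
KRT18: gccacctaccgccgcctgctggaAgATgGC
KRT15: gcTacTtaccgcAgcctgctCgagggCCag
KRT10: CAAacctaccgcAgcctgctAgaAggagag

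The stretch of KRT18 lies on the plus strand of chromosome 12 (chr12:52952302-52952331), and the other type I genes lie on the minus strand of chromosome 17. Their stretches are chr17:41620667-41620696 (KRT17), chr17:41583243-41583272 (KRT14), chr17:41523785-41523814 (KRT19), chr17:41515480-41515509 (KRT15) and chr17:40819522-40819551 (KRT10). KRT17 differed from KRT14 at 1 of these 30 bases, from KRT19 at 3, from KRT18 at 5 and from KRT15 and KRT10 at 6 each.

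Over whole transcripts, the share of 50-base windows that also occur in another gene's transcripts on either strand was 47.6% for KRT18, 36.9% for KRT8, 23.8% for KRT14, 16.0% for KRT17 and 10.8% for KRT7. It was at most 3.99% for the other 5 genes. For KRT18 the largest overlap was with KRT8 (21.6% of windows): the 2 genes are neighbours on opposite strands, and 16.3% of the exonic bases of KRT18 are shared with KRT8. For KRT8 the largest was with the pseudogene KRT8P3 (19.0%), for KRT7 with its antisense gene KRT7-AS (10.4%), and for KRT17 with the pseudogene KRT17P1 (9.36%). Whether the counting used strand is not given in the sources used here, so the counts of KRT8 and KRT18 are uncertain to that extent. Counts assigned to 51 KRT8 pseudogenes came to 0.521% to 0.788% of the KRT8 counts in a library, and those of 8 KRT17 pseudogenes to 0.978% to 2.14% of the KRT17 counts. How reads that match more than 1 gene were counted is not given either. These shares therefore do not bound the reads misassigned or left out.

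Library totals ran from 21422976 to 25169713 counts. FER, the targeted gene, had 16.3 and 21.2 CPM in control (CPM, counts per 1000000 counts of a library, scaled with TMM factors). It had 17.8 and 20.1 CPM under the Fer hairpin, so its mRNA was not reduced there. Because this goes against the label, those 2 are called the knockdown-labelled libraries throughout. Counts on the mitochondrial chromosome made up 16.9% and 19.4% of the control libraries and 9.62% and 9.37% of the knockdown-labelled libraries. In edgeR's quasi-likelihood test 99 of 15336 genes passed at an adjusted p of 0.05, which is 0.646%. Of these 43 were higher (0.28%) and 56 lower (0.365%). With library totals alone in place of TMM, 396 were higher and 47 lower, and the median over all genes moved from 0.01 to 0.18 on the log2 scale.

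The simple keratins KRT8, KRT18 and KRT7 had the highest counts, and the basal pair KRT5 and KRT14 was close to undetected. KRT8 had 2094 and 1602 CPM in control and 1826 and 1848 CPM in the knockdown-labelled libraries. KRT18 had 965 and 792 CPM in control and 802 and 745 CPM in the others. KRT7 followed at 309 and 248 CPM in control and 211 and 212 CPM in the others, and KRT80 at 126 and 126 CPM against 95.1 and 100 CPM. KRT15, KRT10 and KRT17 lay between 22.0 and 56.8 CPM in every library, and KRT19 between 5.63 and 7.71 CPM.

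**Figure D1:**
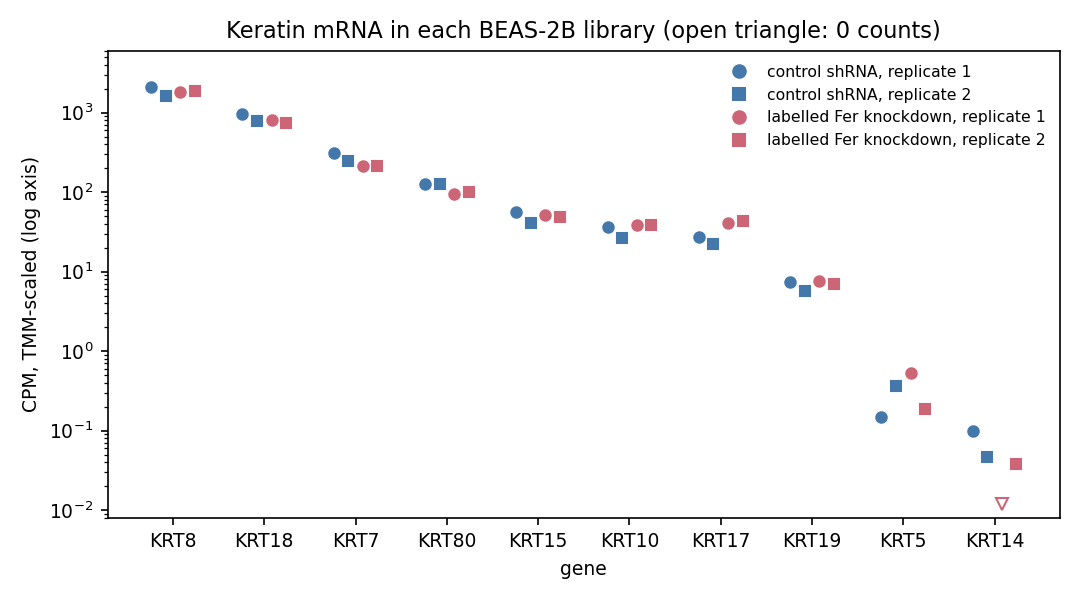
Each point is the TMM-scaled CPM (log axis) of a keratin gene in 1 library. Circles are replicate 1 and squares replicate 2, blue is control shRNA and red is the knockdown-labelled libraries. KRT8 lies between 1602 and 2094 CPM, while KRT5 and KRT14 lie below 1 CPM and KRT14 has 0 counts in 1 library, drawn as an open triangle.

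Counts of KRT5 were 3 and 8 in control and 12 and 5 in the knockdown-labelled libraries. KRT14 had 2, 1, 0 and 1 counts in the same order, at or under a floor of 3 counts, so no fold is given. These 2 genes were too low to be tested, which left 8 of the 10. TP63, the transcription factor of basal cells, had 3 and 3 counts in control and 5 and 8 in the others. The basal-cell keratin KRT15 did not share this low level: it had 1161 and 888 counts in control and 1164 and 1309 in the knockdown-labelled libraries.

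Levels of different genes can be compared only per length. With the deposited gene lengths, KRT18 and KRT8 had means of 269 ± 31.2 and 268 ± 29.2 RPKM (CPM divided by length in kilobases, SD over 4 libraries), ranks 97 and 98 among 15336 genes. Their ranges overlapped. KRT7 followed at 61.2 ± 11.5, KRT80 at 25.7 ± 3.83, KRT10 at 16.3 ± 2.72, KRT17 at 11.1 ± 3.47, KRT15 at 8.30 ± 1.10 and KRT19 at 2.96 ± 0.395 RPKM. Neighbours in this order overlapped for KRT10 with KRT17 and for KRT17 with KRT15, and KRT5 overlapped with KRT14 at the bottom. The other neighbours had separate ranges.

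The deposited length of each of the 10 genes exceeds that of its principal transcript, and for KRT8 it is 6881 bases, against 2126 bases for its principal transcript. With principal transcript lengths KRT8 stood above KRT18, at 867 ± 94.5 against 529 ± 61.3 RPKM, with no overlap over the 4 libraries. The order KRT8, KRT18, KRT7, KRT80 then held with principal transcript and with coding lengths. By principal transcript length the ranges of KRT80 and KRT17, the next gene, overlapped. KRT15, KRT10 and KRT17 changed places: KRT15 was 7 by the first 2 lengths and 5 by coding length.

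Type II chains made up more of the keratin mRNA than type I chains by each length used, by a margin that depended on the length, and their share did not separate the groups. By deposited length they were 53.8% and 53.0% of the 10 genes' counts per kilobase in control and 52.7% and 54.6% in the knockdown-labelled libraries. By principal transcript length they were 64.1% and 63.0% in control and 63.7% and 65.5% in the others. By coding length they were 67.7% and 66.9% in control and 67.3% and 69.0% in the others. The difference was 0.27 percentage points by the first length (exact permutation test, two-sided, p = 1; 2 libraries against 2 cannot go below 0.333) and 1.01 points by the second (exact permutation p = 0.667).

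**Figure D2:**
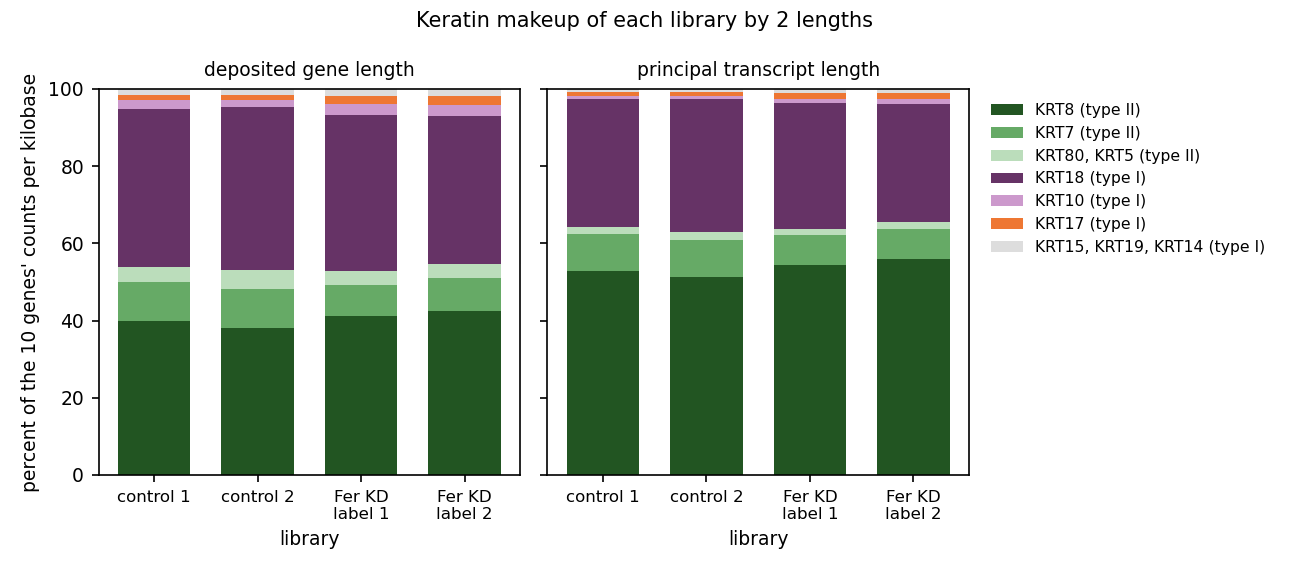
Bars show, for each library, what percent of the 10 genes' counts per kilobase each keratin took, by deposited gene length (left) and by principal transcript length (right); green is type II and the other colours are type I. KRT8 takes 38.1% to 42.5% on the left and 51.2% to 56.0% on the right, and KRT17 takes a larger slice in the knockdown-labelled libraries.

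The summed keratin mRNA also overlapped between the groups. The 10 genes took 0.340% (95% Wilson interval 0.3377 to 0.3426) and 0.272% (0.2695 to 0.2738) of all counts in control. They took 0.326% (0.3233 to 0.3282) and 0.321% (0.3191 to 0.3235) in the knockdown-labelled libraries. The means differed by 0.0176 percentage points (exact permutation p = 1), less than the SD of 0.0484 between the control libraries. Outside the mitochondrial chromosome the difference was -0.0158 points, again with overlapping groups. The intervals cover counting error only.

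No keratin passed the test across all genes. Of the 8 members tested, edgeR called 0 in either direction at an adjusted p of 0.05, against 0.646% of all genes. At an unadjusted p under 0.05 there were 3 members (KRT7, KRT17, KRT80), where 17.7% of all genes lay. DESeq2 and limma-voom each called 1, KRT17. The median log2 fold change of the 8 was 0.02, against 0.01 over all genes, with 4 above 0 and 4 below. The CPM of 4 members did not overlap between the groups, KRT10 and KRT17 being higher and KRT7 and KRT80 lower in the knockdown-labelled libraries. Over all genes tested 49.2% did not overlap, 25.8% higher and 23.4% lower, so that count is near the background.

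**Figure D3:**
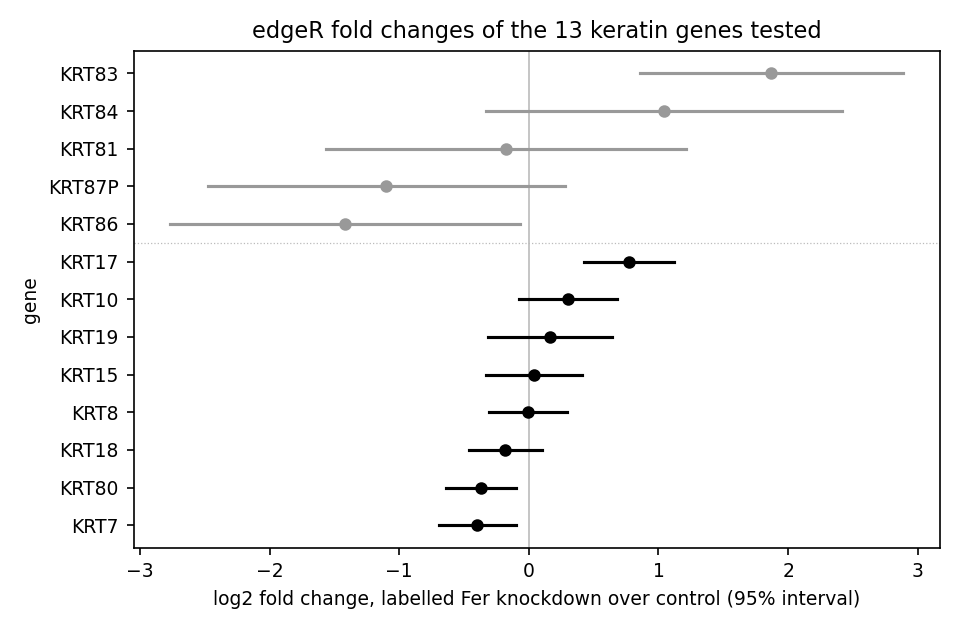
Points are edgeR log2 fold changes of the knockdown-labelled libraries over control with 95% intervals, for the 8 members tested (black) and the 5 other keratin genes tested (grey). KRT17 is highest among the members at 0.77, KRT7 lowest at -0.40, and KRT8 sits at -0.01.

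The stress keratin KRT17 (ENSG00000128422, minus strand of chr17:41619441-41624842 in GRCh38) had the largest difference among the members. Its counts were 560 and 476 in control and 920 and 1161 in the knockdown-labelled libraries, or 27.4 and 22.0 CPM against 40.5 and 43.7 CPM. Both knockdown-labelled libraries were above both controls. The fold was 1.71 (95% interval 1.34 to 2.17), a log2 fold change of 0.77 ± 0.16 (SE, n = 2 each) with an edgeR adjusted p of 0.0552, just above the threshold. KRT17 passed in DESeq2 (log2 0.76, adjusted p = 0.00356), limma-voom (adjusted p = 0.0474), upper-quartile scaling (0.0496) and library totals alone (0.0266), and with no filter on low counts (0.000434). It stayed above the threshold with DESeq2 size factors in edgeR (0.0501), with a filter of 5 CPM (0.0531) and with the mitochondrial chromosome left out (log2 0.76, adjusted p = 0.0573).

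Leaving out single libraries moved KRT17 in both directions. Its log2 fold change was 0.94 without control replicate 1 and 0.60 without replicate 2 of the controls. It was 0.83 without replicate 1 of the knockdown-labelled libraries and 0.71 without replicate 2. Such a fit takes its spread from the group with 2 libraries alone, so its p-values are not given. That spread differed by group. Over genes, the median absolute log2 difference between replicates was 0.26 in control and 0.12 in the knockdown-labelled libraries. The direction for KRT17 was the same in each of the 13 other settings tried.

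**Figure D4:**
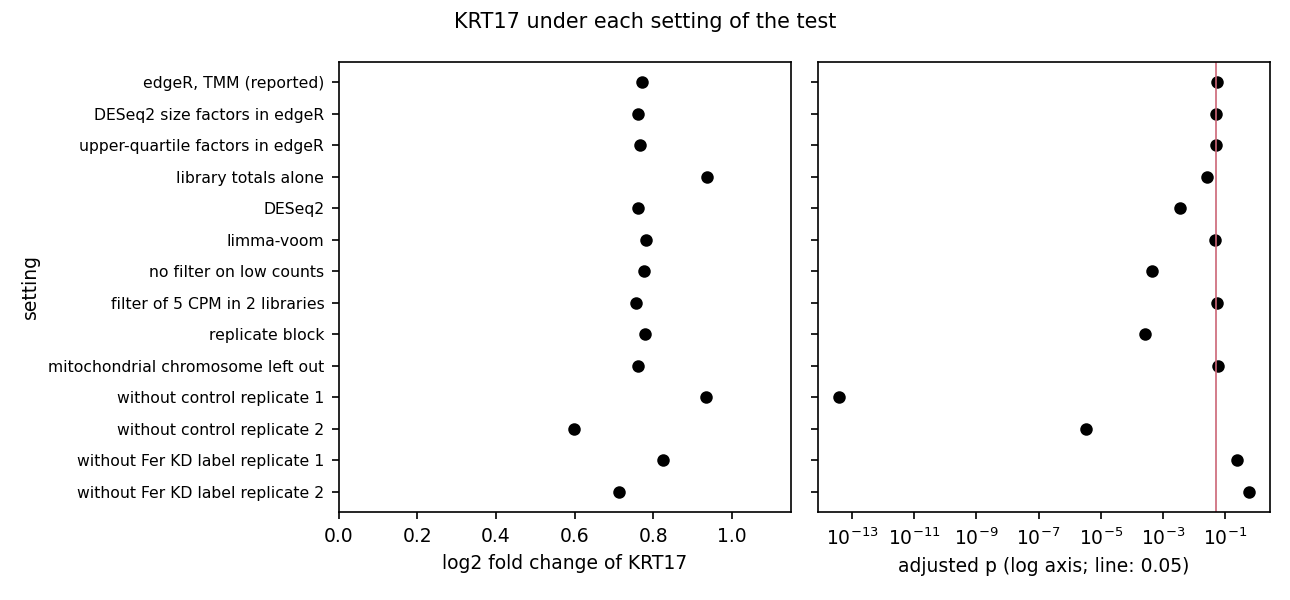
Left, log2 fold change of KRT17; right, its adjusted p on a log axis with a line at 0.05, for the reported fit and 13 other settings. The fold change lies between 0.60 and 0.94 throughout, while the adjusted p lies on either side of the line. Where a library was left out, the spread behind the adjusted p came from the other group alone.

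KRT17 was compared with 12 other keratins for runs of identical transcript sequence. The longest run was 61 bases with KRT16, a stress keratin with 7 and 5 counts in control and 5 and 6 in the others, and 59 bases with KRT14. It was 47 bases with KRT15, which had more counts than KRT17 in every library, and 38 bases with KRT19. Whether reads shared among these genes bear on the KRT17 difference was not tested. KRT6A, KRT6B and KRT6C, the type II partners of KRT16 and KRT17 in stressed epithelium, had 2, 4 and 0 counts over the 4 libraries.

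The simple keratin KRT7 and the type II keratin KRT80 lay lower in the knockdown-labelled libraries, without passing the test. KRT7 was at a fold of 0.759 (95% interval 0.618 to 0.932), a log2 fold change of -0.40 ± 0.13 (SE, edgeR adjusted p = 0.169). KRT80 was at a fold of 0.773 (0.642 to 0.932), a log2 fold change of -0.37 ± 0.12 (edgeR adjusted p = 0.161). The 2 controls of KRT80 differed by less than 0.1 CPM, while those of KRT7 were 309 and 248 CPM. KRT7-AS, which shares exonic bases with KRT7, had 95 and 119 counts in control and 62 and 87 in the others. Without control replicate 1 the log2 fold change was -0.23 for KRT7 and -0.38 for KRT80. Without control replicate 2 they were -0.57 and -0.39. Without replicate 1 or 2 among the knockdown-labelled libraries, the log2 fold change was -0.39 and -0.40 for KRT7 and -0.33 and -0.41 for KRT80.

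KRT8 and KRT18, the main filament pair, did not pass. KRT8 had a fold of 0.994 (95% interval 0.807 to 1.22, edgeR adjusted p = 0.984) and KRT18 of 0.881 (0.724 to 1.07, edgeR adjusted p = 0.498). The sign for KRT8 depended on the control library. Its log2 fold change was 0.19 without control replicate 1 (edgeR adjusted p = 0.00192) and -0.21 without control replicate 2 (adjusted p = 0.000863). With library totals alone it was 0.16, close to the shift of 0.18 of all genes. KRT18 was at -0.34 without control replicate 2 and at -0.04 without control replicate 1.

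The type I keratins KRT10, KRT15 and KRT19 did not pass either. KRT10 had 36.5 and 26.5 CPM in control and 38.7 and 39.1 CPM in the knockdown-labelled libraries, a log2 fold change of 0.30 ± 0.17 (SE, edgeR adjusted p = 0.387). Both of the latter were above both controls. Without control replicate 1 KRT10 was at 0.55 and without control replicate 2 at 0.07. KRT15 was at 0.04 ± 0.17 (edgeR adjusted p = 0.931), at 0.29 without control replicate 1 and at -0.20 without control replicate 2. KRT19, the smallest simple type I keratin, was at 0.16 ± 0.22 (edgeR adjusted p = 0.745), and its groups overlapped.

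The keratins differed between the control libraries in the same direction. Control replicate 1 was 1.22 to 1.39 times control replicate 2 in CPM for 7 of the 8 members, and 1.00 times for KRT80. Over all genes tested the median of this ratio was 0.998. Between the knockdown-labelled libraries the ratio of the 8 members lay between 0.927 and 1.11.

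Because of this difference between the control libraries, counts were also set against KRT8 within each library. Such a ratio removes library scaling, and also any difference that KRT8 shares with the other gene. KRT8 itself was 1.31 times as high in control replicate 1 as in control replicate 2. Per 100 counts of KRT8, KRT17 had 1.31 and 1.37 counts in control and 2.22 and 2.37 in the knockdown-labelled libraries, 1.71 times as many. KRT7 had 14.8 and 15.5 in control and 11.5 and 11.5 in the others, 0.761 times. KRT10 had 1.74 and 1.65 in control and 2.12 and 2.11 in the others, 1.24 times. For these 3 genes the replicates lay close together and the groups were apart.

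KRT18 had 46.1 and 49.4 counts per 100 of KRT8 in control and 43.9 and 40.3 in the others, 0.882 times. KRT80 had 6.04 and 7.89 against 5.21 and 5.44, 0.764 times, and KRT19 had 0.355 and 0.351 against 0.422 and 0.375, 1.13 times. KRT15 was the gene whose ratios overlapped, at 2.71 and 2.56 against 2.81 and 2.67. So 6 of 7 ratios to KRT8 did not overlap, 3 of them higher and 3 lower. Of all genes tested 38.5% had ratios to KRT8 that did not overlap, 22.2% higher and 16.3% lower. The median gene did not share the difference between the controls that KRT8 and most members had, so this share is not a matched background. The 7 ratios share the KRT8 counts. Which ratios overlapped depended on the reference gene. Per 100 counts of KRT18, KRT15 did not overlap, at 5.89 and 5.17 in control and 6.39 and 6.62 in the others. KRT80 did overlap, at 13.1 and 16.0 in control and 11.9 and 13.5 in the others. Relative to KRT18, KRT7 was 0.864 times and KRT17 1.95 times its control mean. In exact permutation tests on 14 ratios to KRT8 or KRT18, none could go below p = 0.333, and the lowest adjusted value was 0.389. A ratio shows unequal change only, not which of its 2 genes changed.

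**Figure D5:**
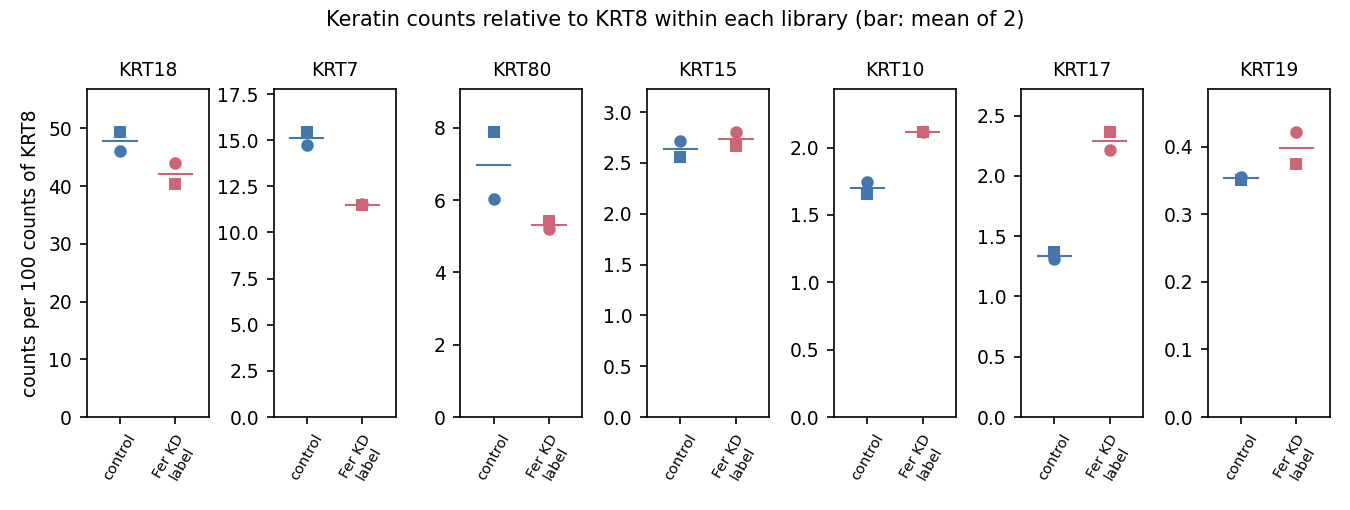
Counts of 7 keratins per 100 counts of KRT8 in each library, each panel with its own axis from 0; circles are replicate 1, squares replicate 2, and horizontal lines are the mean of 2 libraries. KRT17 goes from 1.31 and 1.37 to 2.22 and 2.37 and KRT7 from 14.8 and 15.5 to 11.5 and 11.5, while KRT15 overlaps.

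Within the keratin mRNA by deposited length, KRT17 took 1.20% and 1.20% in control and 2.10% and 2.31% in the knockdown-labelled libraries. KRT7 took 10.1% and 10.1% in control and 8.17% and 8.40% in the others. KRT10 took 2.21% and 2.01% against 2.77% and 2.86%. The slices of all 8 tested members, these 3 included, did not overlap between the groups. By CPM, 4 of these 8 did not overlap, where 49.2% of all genes tested did not. No share over all genes was computed for slices. Slices of 1 whole depend on each other, and they take out the difference that most members shared between the control libraries. A separate slice is therefore not particular to any of these genes.

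The other keratin genes were close to silent. Of 57 further genes named KRT with digits and an optional letter, 12 of them pseudogenes by name, 21 had 0 counts in all libraries and 50 had at most 20 counts in total. The edgeR test included 5 of them and called 0. The highest was KRT83, a type II hair keratin, with 7 and 13 counts in control and 40 and 46 in the knockdown-labelled libraries. Its log2 fold change was 1.87 ± 0.46 (SE, edgeR adjusted p = 0.0866), 12.8% of its transcript windows occur in other genes, and it passed with library totals alone (adjusted p = 0.0465). It also passed with no filter (0.00353) and with the replicate block (0.00978). It did not pass in limma-voom (0.0852) or with upper-quartile factors (0.0799). With 1 library left out its log2 fold change ran from 1.53 to 2.31.

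KRT81, also of the hair type, had 27 and 8 counts in control and 12 and 25 in the others, with a log2 fold change of -0.17 (edgeR adjusted p = 0.920). KRT84, another hair keratin, had 16 and 4 counts in control and 21 and 28 in the others (log2 1.04, edgeR adjusted p = 0.416, and 0.0394 without control replicate 1). The pseudogene KRT87P had 13 and 17 counts in control and 11 and 5 in the others (log2 -1.10, edgeR adjusted p = 0.391).

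Among genes that work with keratins, 1 of 68 tested passed in edgeR. FOSL1, a subunit of the AP-1 transcription factor, fell by 0.73 on the log2 scale (SE 0.13, edgeR adjusted p = 0.0379). It had 206 and 233 CPM in control and 139 and 126 CPM in the knockdown-labelled libraries. With replicate 1 of those libraries left out its log2 fold change was -0.80, and without replicate 2 it was -0.66. The call did not hold in either fit. FOSL1 was the only call among 18 tested transcription factors that act on keratin genes, whose median was -0.06. Of these 18, 12 were below 0 and 6 above. TFAP2A was at -0.78 with an edgeR adjusted p of 0.0552, just above the threshold, and it passed in DESeq2. GRHL2, an epithelial factor of that list, had at most 1 count in a library.

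No linker protein passed in edgeR. The plakins and linkers tie filaments to junctions and to the rest of the cytoskeleton, and of 7 tested 0 passed, with 6 below 0 and a median log2 fold change of -0.22. PLEC, which encodes plectin, was at -0.30 (edgeR adjusted p = 0.178) and PPL, for periplakin, at -0.30 (0.259). Of 8 desmosome genes 0 passed, with a median of -0.07. JUP, for plakoglobin, had 146 and 145 CPM in control and 106 and 106 CPM in the others (edgeR adjusted p = 0.0960), and PERP, a desmosomal membrane protein, was at -0.71 (0.0771). Both passed in DESeq2 (adjusted p = 0.0227 and 0.0400). Of 7 hemidesmosome genes 0 passed, with a median of -0.19, and ITGB4, the integrin subunit that binds plectin, was at -0.44 (edgeR adjusted p = 0.0950, and 0.0220 in DESeq2), while COL17A1 was at 0.34 (0.384).

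The other intermediate filament genes also held no edgeR call. Of 10 tested the median was 0.21. VIM, for vimentin, the filament of mesenchymal cells, had 1455 and 1256 CPM in control and 903 and 896 CPM in the knockdown-labelled libraries. Its log2 fold change was -0.59 ± 0.12 (SE, edgeR adjusted p = 0.0549, and 0.00129 in DESeq2). The neurofilament gene NEFH was at -1.12 from 1.03 and 1.11 CPM (edgeR adjusted p = 0.253).

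Keratin-binding and organising proteins had a median of 0.00 with 0 of 15 past the edgeR test. SFN, a 14-3-3 protein that binds keratins, was at -0.37 (edgeR adjusted p = 0.176) and the stress kinase MAPK14 at 0.38 (0.179). Of the squamous differentiation list only 4 of 12 genes were high enough to test and 0 passed. CNFN, of the cornified envelope, was at -0.44 (edgeR adjusted p = 0.340) and SCEL at 0.60 (0.645). SPRR1A, SPRR1B, SPRR2A and SPRR3, small proline-rich proteins of that envelope, had 0 counts in all libraries. Over these 7 lists together the median log2 fold change was -0.06 with all libraries in the fit. Dropping control replicate 1 moved it to -0.15, and dropping control replicate 2 moved it to -0.03. When replicate 1 or 2 of the knockdown-labelled libraries was dropped, it was -0.08 or -0.11. A group then holds 1 library, so calls from these fits are not counted for the lists.

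The labels call the line normal lung epithelium, and the marker lists were read against that. Of 10 general epithelial genes 8 were tested, 0 passed in edgeR, and all 8 had a log2 fold change above 0 (median 0.45). Their sum was 121 and 130 CPM in control and 139 and 141 CPM in the knockdown-labelled libraries. CDH1, for E-cadherin, had 7.53 and 7.33 CPM in control and 9.78 and 10.5 CPM in the others, and EPCAM had 2.74 and 3.41 CPM against 3.48 and 4.97 CPM. These 2 were chosen after their values were seen. CLDN1, for the tight junction protein claudin-1, had the highest CPM of the list, from 67.5 to 81.2 over the 4 libraries. Its log2 fold change was 0.004, and CLDN1, CLDN4 and SPINT1 overlapped between the groups. Over all genes the median log2 fold change was 0.01.

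Fibroblast and mesenchymal markers summed to 4121 and 4846 CPM in control and 3358 and 3216 CPM in the knockdown-labelled libraries. Of the 11 genes 7 were tested, and 1 fell and 0 rose in edgeR. The 1 was THY1, a surface protein of fibroblasts, with 501 and 457 CPM in control and 297 and 264 CPM in the others (log2 -0.77, edgeR adjusted p = 0.0302). The median log2 fold change of the list was -0.34, with 5 genes below 0 and 2 above, and DCN and LUM had 0 counts. FN1, for fibronectin, had the highest CPM of the list and overlapped between the groups. It was at 2003 and 2936 CPM in control and 2004 and 1901 CPM in the others. The airway basal list, which holds KRT5, KRT14 and KRT15, summed to 691 and 687 CPM in control and 543 and 535 CPM in the others, with 0 of 5 past the test. Most of that sum was ITGB4, at 537 and 517 CPM in control and 399 and 380 CPM in the others, while KRT15 overlapped between the groups. Ciliated (5 tested), club and goblet (2), alveolar (3), endothelial (2) and neuroendocrine (2) genes had 0 calls each. No blood marker was high enough to be tested, and the blood list summed to at most 0.646 CPM in a library. The mesenchymal sum and the mitochondrial share were lower in the libraries in which KRT17 was higher and KRT7 and KRT80 were lower. The part of the mesenchymal markers in those differences was not tested. In bulk RNA, fewer cells of a type and less RNA per cell cannot be told apart.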

How the data were processed

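The authors deposited raw counts of reads per gene and a gene length, per the file headers. The submitters' processing notes name the tools HISAT2, featureCounts and DESeq2 and both hg19 and mm10, and give no version and no role for any. The annotation release is not given in the sources used here. Of 39635 rows, 1 held no values. One column, for the first shFer library, has an abbreviated name and was assigned by its replicate number, which no other shFer library has.

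Counts were tested with edgeR 4.0.16 (R 4.3.3): filterByExpr, TMM, quasi-likelihood test, two-sided, Benjamini-Hochberg over all 15336 genes at 0.05, without a block, with 2 residual degrees of freedom. SE came from the fold change and the F statistic. RPKM was computed from the counts with the deposited length, or with GENCODE 29 principal transcript or coding lengths. Fold changes are knockdown-labelled libraries over control. The steps were tested on simulated counts. There, 20 of 67 genes with a true fold of 1.5 were called, and 61 of 67 with a true fold of 2.

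The members, 7 lists of keratin partners and 9 marker lists were chosen with earlier results of these data known. All members were named, with the 4 other keratins of highest counts and, per list of partners, up to 4 genes past the threshold or else up to 2 with the smallest p. CDH1, EPCAM, CLDN1, CLDN4, SPINT1, THY1, FN1, GRHL2, TFAP2A, TP63, KRT16, KRT6A, KRT6B, KRT6C, KRT7-AS and list members at 0 were named after their values were seen.

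Alternatives were other scalings, DESeq2 1.42.0, limma-voom (limma 3.58.1), other filters, the replicate number as a block, the mitochondrial chromosome left out and each library left out. Coding length was added after seeing the data. Transcript sequences are from GENCODE 29 (GRCh38), another build than hg19, and no position was moved between builds. The matching stretches of the type II genes are not reported here.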

Additional observations from a re-analysis of the deposited data

How the results depend on the processing

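Over all genes, where edgeR with TMM called 99, the count was 192 with upper-quartile factors, 443 with library totals alone, 584 in DESeq2, 178 in limma-voom, 993 with no filter and 990 with the replicate number as a block. Leaving out 1 library gave 56 to 4734. Of the keratin members, where 0 were called, 1 (KRT17) was called under each of those 6 settings, and leaving out 1 library gave 0 to 6. With the replicate block KRT17 was at 0.78 (edgeR adjusted p = 0.000254). The labels do not say that a number marks a shared culture, and the deviations of same-numbered libraries from their group means correlated at 0.04 over genes. Of the 68 partner and regulator genes, where 1 was called, there were 2 with DESeq2 size factors in edgeR, 3 with upper-quartile factors, 6 in DESeq2, 3 in limma-voom, 6 with no filter, 2 with a filter of 5 CPM and 5 with the replicate block. Leaving out 1 library gave 0 to 34. The 6 in DESeq2 were FOSL1, ITGB4, JUP, PERP, VIM and TFAP2A, the last named after its values were seen.

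Signs turned for KRT8, at 0.16 with library totals alone, 0.0045 in limma-voom, 0.0043 with the replicate block and, leaving out 1 library, from -0.21 to 0.19 (control replicates 2 and 1). Leaving out 1 library, KRT15 ran from -0.20 to 0.29 and KRT19 from -0.048 to 0.37, the lower value in each case without control replicate 2. KRT81 was at 0.045 in limma-voom and ran from -0.85 (without control replicate 2) to 0.99 (without control replicate 1), with 0.16 without replicate 1 of the knockdown-labelled libraries. FER ran from -0.16 without control replicate 1 to 0.19 without control replicate 2, and was at -0.078 without replicate 2 of the knockdown-labelled libraries. The cause was not tested. With a library left out, the lone library of that group was taken to have the spread of the other group. The differences in keratin share and in type II share moved by less than the larger of the 2 groups' SDs (0.0484 and 1.31 percentage points), though by more than the smaller SD under some alternatives. The sign of the first turned outside the mitochondrial chromosome (-0.0158), with TMM sizes (-0.0184) and without control replicate 2 (-0.0166), and that of the second without control replicate 2 (-0.0984) or replicate 2 of the knockdown-labelled libraries (-0.661). With 2 libraries a group, a fold of KRT8 between 0.807 and 1.22 could not be told from 1.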

Other observations

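Counts assigned to KRT8 pseudogenes were 229 and 181 in the control libraries and 316 and 387 in the knockdown-labelled libraries. Relative to the counts of KRT8 itself they were 0.535% and 0.521% in control and 0.762% and 0.788% in the others, so the groups did not overlap. Among all genes tested, 38.5% had ratios to KRT8 that did not overlap, 22.2% being higher in the knockdown-labelled libraries. For KRT18 pseudogenes the shares were 0.350% and 0.274% in control and 0.477% and 0.662% in the others. For KRT17 pseudogenes they were 2.14% and 1.26% against 0.978% and 1.38%, and these overlapped. KRT10-AS1, the gene antisense to KRT10, had 149 and 126 counts in control and 150 and 157 in the others.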
